A study of Mus musculus with 10 samples.

Results

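Chromatin accessibility around 9 genes of the p53 pathway and of mitochondrial apoptosis was described in MYC-driven mouse liver tumours with different Arid1a genotypes. The genes were Trp53, Mdm2, Cdkn1a, Bax, Bbc3, Pmaip1, Mcl1, Bcl2l1 and Bcl2l11. They were taken by name from a RefSeq table of 21627 protein-coding genes on the mouse autosomes and X. Every peak that lay inside one of them or within 10 kb of it was collected, which gave 84 peaks in 14 separate regions. Peaks came from ATAC-seq, a method that reads open chromatin from the places where a transposase can insert into DNA, and 1 peak list was deposited for each of 10 libraries. The comparisons ask whether loss of Arid1a, the gene of a subunit of SWI/SNF chromatin remodelling complexes, goes with other accessibility at these genes.

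All libraries came from frozen liver tumours of FVB mice collected at death. Every mouse carried LAP-tta, which makes a doxycycline-repressed activator in liver cells, and TRE-MYC, a MYC transgene that the activator switches on once doxycycline is withdrawn from the drinking water. Homo tumours (n = 3, about 100 days old) had both Arid1a alleles floxed together with Alb-cre, which is Cre recombinase under the albumin promoter. Het tumours (n = 3, about 70 days) had 1 floxed and 1 intact allele with Alb-cre. WT tumours (n = 4, about 55 days) had both alleles floxed but no Cre. Alb-cre is active in hepatocytes and their precursors, so other cells of a tumour keep Arid1a. Age and the presence of Cre cannot be told apart from genotype in the comparisons with WT, and age cannot be told apart from it between Homo and Het. Replicates are numbered in the titles, but whether they are different mice is not said, and p-values here cover only the spread from library to library, which may be technical.

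p53, encoded by Trp53, is a transcription factor that is stabilised by DNA damage and by oncogenes such as MYC. Mdm2 encodes the ubiquitin ligase that degrades it, and is itself a p53 target, so that the pair form a feedback loop. Cdkn1a encodes the cyclin-dependent kinase inhibitor p21, through which p53 stops the cell cycle. Bax, Bbc3 (PUMA) and Pmaip1 (NOXA) are targets that promote cell death at the mitochondrion: BAX makes the pores in the outer membrane, and PUMA and NOXA are BH3-only proteins that neutralise its inhibitors. Mcl1 and Bcl2l1 (BCL-XL) encode those inhibitors, on which hepatocytes depend for survival. Bcl2l11 encodes BIM, another BH3-only protein.

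5 stretches of promoter sequence are shown, because the position of peaks relative to gene starts is what the results turn on. They are RefSeq sequences of GRCm38.p6, written 5′ to 3′. The first is the DNA between the annotated gene spans of Trp53 and Wrap53, its neighbour on the other strand (chr11:69580251-69580347, plus strand). The others are the 250 bases before a start of Mdm2 (chr10:117710759-117711008, minus strand), of both Cdkn1a starts (chr17:29090729-29090978 and chr17:29093519-29093768, plus strand) and of Mcl1 (chr3:95658471-95658720, plus strand). Capitals mark the p53 half-site (the 10-base element to which p53 binds in pairs), the GC box GGGCGG and the CCAAT box CCAAT, each searched on both strands, so CCGCCC and ATTGG are the same boxes on the other strand.
Trp53 and Wrap53 gap: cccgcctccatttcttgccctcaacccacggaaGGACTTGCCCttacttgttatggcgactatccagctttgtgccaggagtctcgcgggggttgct
Mdm2 start 1: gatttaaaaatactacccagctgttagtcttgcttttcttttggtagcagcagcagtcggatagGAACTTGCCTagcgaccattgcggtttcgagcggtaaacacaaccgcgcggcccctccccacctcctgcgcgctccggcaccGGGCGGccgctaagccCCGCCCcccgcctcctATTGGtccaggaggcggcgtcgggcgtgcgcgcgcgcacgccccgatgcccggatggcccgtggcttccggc
Cdkn1a start 1: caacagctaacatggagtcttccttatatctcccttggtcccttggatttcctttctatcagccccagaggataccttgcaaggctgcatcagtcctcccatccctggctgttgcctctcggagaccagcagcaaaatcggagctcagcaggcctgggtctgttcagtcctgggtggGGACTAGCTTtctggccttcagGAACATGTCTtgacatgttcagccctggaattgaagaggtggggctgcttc
Cdkn1a start 2: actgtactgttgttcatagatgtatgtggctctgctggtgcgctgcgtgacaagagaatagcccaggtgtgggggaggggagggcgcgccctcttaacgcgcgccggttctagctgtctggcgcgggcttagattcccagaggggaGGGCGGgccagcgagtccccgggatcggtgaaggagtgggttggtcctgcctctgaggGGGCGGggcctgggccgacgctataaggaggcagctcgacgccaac
Mcl1 start 1: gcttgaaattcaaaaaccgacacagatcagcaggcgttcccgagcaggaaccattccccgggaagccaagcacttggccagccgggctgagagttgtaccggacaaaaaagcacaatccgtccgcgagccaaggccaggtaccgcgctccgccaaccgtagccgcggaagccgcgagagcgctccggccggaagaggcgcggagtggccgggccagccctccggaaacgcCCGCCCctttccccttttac

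The 2 Cdkn1a starts lie 2790 bp apart and differ in composition. The promoter of the upstream start held 2 full matches to the p53 half-site, 2 CpG dinucleotides and no GC box, and no library had a peak within 500 bp of that start. The promoter of the downstream start held 2 GC boxes, 19 CpG dinucleotides and no half-site, and 5 of 10 libraries had a peak there. RefSeq promoters were found for 8 of the 9 genes, with 14 starts in all. Over these 14 the median GC content was 64.6% and the median number of CpG dinucleotides in 250 bases was 21, against 52.4% and 6 over all 32851 promoters of the table. The GC box was found before 9 of the 14 starts (32.7% of all promoters have it), the CCAAT box before 5 (33.8%) and the p53 half-site before 4 (7.13%), namely one start each of Trp53, Mdm2, Bax and Cdkn1a. The E-box CACGTG, to which MYC binds, was found before 2 (6.02%), TATAAA before 1 (12.4%), and the AP-1 site TGANTCA before none (6.75%). A match describes these letters and does not show binding. Half-sites were marked and counted only where all 10 bases matched. The 2 before the upstream Cdkn1a start need not be a pair that p53 binds.

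The peak lists differed widely in length and depth. They held 3863, 1748 and 9587 peaks on the autosomes and X in the Homo libraries 1, 2 and 3, 5796, 4666 and 2583 in the Het libraries, and 9526, 8355, 6731 and 8490 in the WT libraries. Depth was recovered from the lists as the lowest background in tags per 200 bp, and averaged 0.995 ± 0.576 in Homo, 0.696 ± 0.0416 in Het and 1.32 ± 0.334 in WT (SD, n = 3, 3 and 4). It spanned a 3.76-fold range, from 0.465 in Homo 2 to 1.74 in WT 1. Homo 3 stood apart from the other Homo libraries, with a list longer than any WT list. Of 12 hepatocyte markers, 8 had a peak within 10 kb in at least 1 library, with between 0 and 7 per Homo library, 1 and 2 per Het library and 2 and 8 per WT library. Alb had one in 2 of 10 libraries, Cebpa in 9, and Serpina1a, Foxa2, Tat and Cps1 in none. In the Het libraries Cebpa and Hnf4a were the only hepatocyte markers with a peak, and the part of these cells in the results was not tested. Epcam of 5 cholangiocyte markers had a peak in 2 libraries, both WT, and the others in none. None of the endothelial (6), stellate cell (6) or neutrophil (3) markers had a peak in any library. The same held for the defining Kupffer cell and macrophage markers Clec4f, Vsig4, Cd5l, Adgre1 and Csf1r, while Cd68 had one in all 10 libraries and Spi1 in Homo 3. Klf1 of 4 erythroid markers had one in 10 and Nfe2 in 9, and Cd79a of 5 lymphocyte markers in 8. Arid1a itself had peaks within 10 kb in every library except Homo 2, which does not check the deletion, since a peak list does not show the floxed exon. In bulk tumour, fewer cells with an open site and less opening per cell cannot be told apart.

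All 9 genes had a peak within 10 kb in at least 1 library, against 55.5% of all protein-coding genes, and none had one in all 10, against 4.10%. In the Homo libraries 1, 2 and 3, the number of the 9 genes with a peak was 2, 3 and 8. In the Het libraries it was 8, 6 and 5, and in the WT libraries 8, 6, 9 and 9. The groups overlapped, and the means were 4.33 ± 3.21 in Homo, 6.33 ± 1.53 in Het and 8 ± 1.41 in WT (SD, n = 3, 3 and 4). The share of all protein-coding genes with a peak also differed between libraries. It was 22.7%, 10.6% and 49.2% in the Homo libraries, 34.0%, 28.3% and 15.5% in the Het libraries, and 48.1%, 44.7%, 38.2% and 45.3% in the WT libraries. In the deposited lists the share of the 9 genes was above that of all genes in 9 libraries and close to it in Homo 1, at 22.2%. 6 of the 9 genes had a peak in every WT library (33.1% of all genes), 4 in every Het library (11.2%) and 0 in every Homo library (7.32%). 

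**Figure D1:**
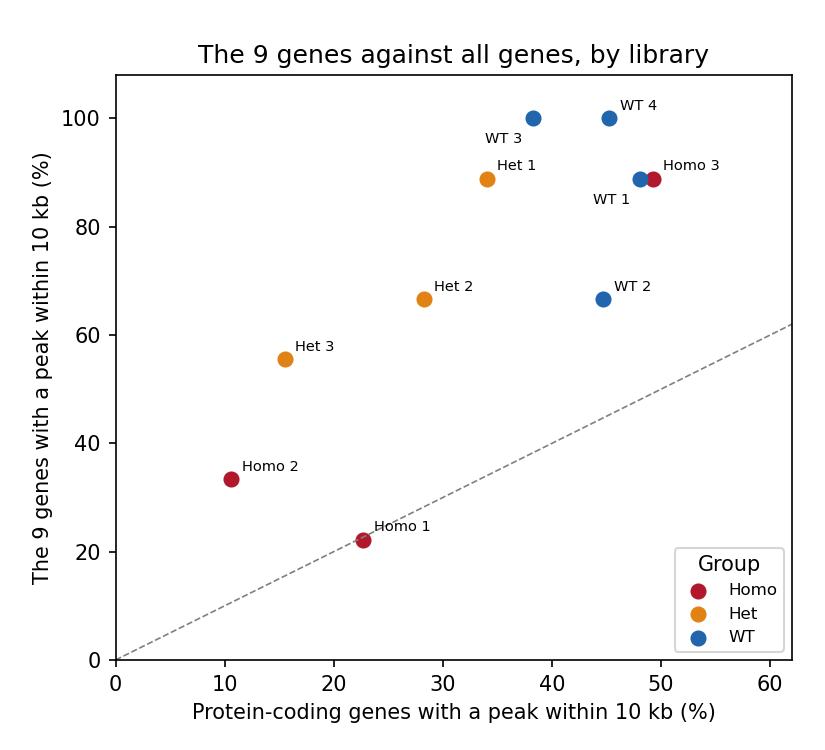
Share of the 9 genes (vertical axis, %) against the share of all protein-coding genes (horizontal axis, %) with a peak within 10 kb, 1 point per library, coloured by group; the dashed line marks equal shares. 9 libraries lie above the line, and Homo 1 lies at 22.2% of the 9 genes and 22.7% of all genes.

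The number of genes with a peak was also taken from scaled lists. With every list scaled to the depth of Homo 2, the means were 4 ± 2.65 in Homo, 6.33 ± 1.53 in Het and 5.5 ± 2.08 in WT (SD, n = 3, 3 and 4), so Het was above WT and no longer below it. With every list cut to its 1748 strongest peaks they were 1.67 ± 1.15 in Homo, 3 ± 2 in Het and 1 ± 0.816 in WT, and both Homo and Het were above WT. Homo stayed below WT at equal depth. The mean share of all protein-coding genes at equal depth was 21.6% in Homo, 25.3% in Het and 33.1% in WT. At equal length it was 10.9%, 10.8% and 11.1%. Over all genes Het thus stayed below WT at equal depth, and the 3 groups were close at equal length. Homo minus WT was −3.67 genes over all libraries and −5.5 without Homo 3. Of the 3 differences, Homo minus Het kept its sign under both scalings.

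**Figure D2:**
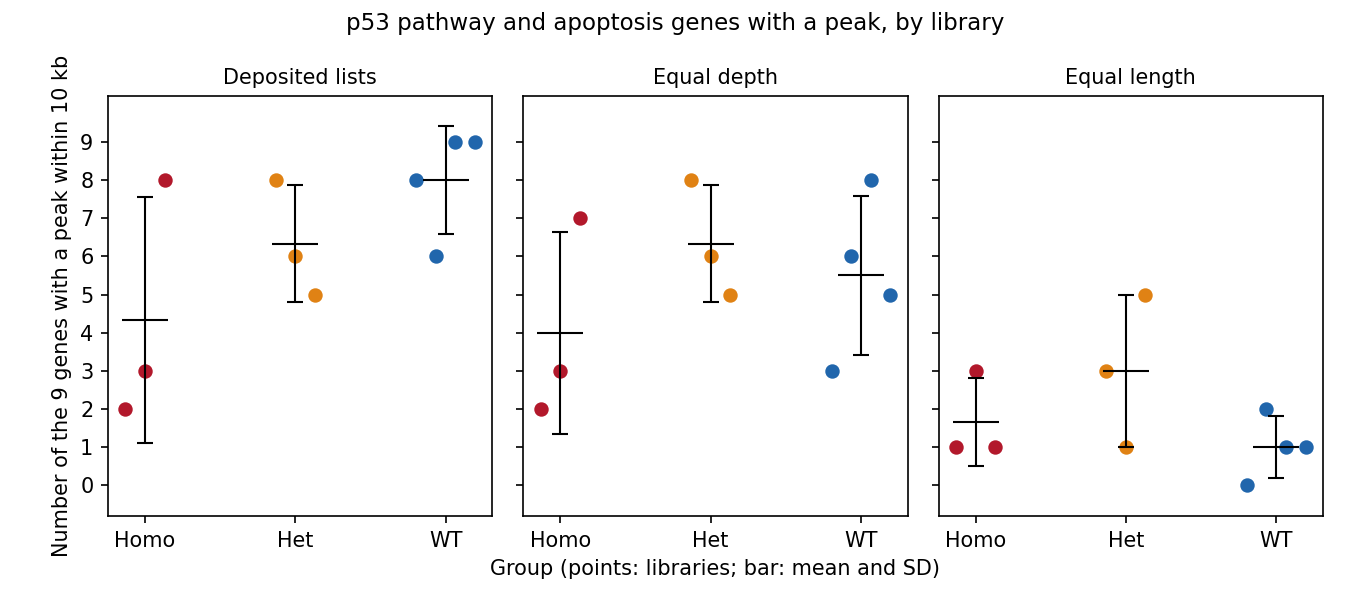
Number of the 9 genes with a peak within 10 kb (vertical axis) by group in the deposited lists, in lists scaled to the depth of Homo 2 and in lists cut to 1748 peaks; points are libraries and bars are mean and SD. WT averages 8 genes in the deposited lists, 5.5 at equal depth and 1 at equal length.

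None of the 9 genes passed Fisher's exact test on presence between groups (two-sided, Benjamini-Hochberg over all genes). At an adjusted p under 0.05 the test called 0.00% of the 11909 genes for Homo against WT, 0.00% of 11636 for Het against WT and 0.00% of 11188 for Homo against Het. The design allows an unadjusted p no lower than 0.0286 with 3 against 4 libraries, so it had little room to call any gene. With 3 against 3 the lowest possible p is 0.1. No gene could therefore be called for Homo against Het, and its counts under 0.05 say nothing about the genes. At an unadjusted p under 0.05, 28 genes (0.235%) passed for Homo against WT, 553 (4.75%) for Het against WT and 0 (0.00%) for Homo against Het, and none of the 9 was among them. A peak in every library of one group and none of the other was likewise found at none of the 9. Of the genes tested, 0.00840% had a peak in every Homo and no WT library and 0.227% in every WT and no Homo library. For Het and WT these shares were 0.00859% and 4.74%, and for Homo and Het 0.420% and 0.0447%. These splits changed with the scaling. Homo and Het had 47 such genes in Homo and 5 in Het in the deposited lists, 23 and 33 at equal depth, and 37 and 51 at equal length. Het and WT had 1 in Het and 552 in WT in the deposited lists, 9 and 134 at equal depth, and 53 and 49 at equal length. Homo and WT had 1 in Homo and 27 in WT, then 7 and 63 at equal depth, and 10 and 19 at equal length. The lowest p among the 9 was 0.143 for Homo against WT, at Mdm2, Bbc3 and Bcl2l1, which each had a peak in 1 of 3 Homo and 4 of 4 WT libraries (exact test, adjusted p = 0.599). Bcl2l1 gave the lowest for Homo against Het as well, with 1 of 3 Homo and 3 of 3 Het libraries (exact p = 0.4, adjusted p = 1).

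The 14 regions gave the same result. The exact test on regions called 0.00% of 12118 regions for Homo against WT, of 11410 for Het against WT and of 10435 for Homo against Het at an adjusted p under 0.05. At an unadjusted p under 0.05 it called 0.305%, 4.37% and 0.00% of them, and none of the 14. As with genes, no region could be called for Homo against Het by either threshold. None of the 14 was present in every library of one group and in none of the other. Over all regions, 0.0165% were in every Homo and no WT library and 0.289% in every WT and no Homo library. For Het and WT these shares were 0.00876% and 4.36%, and for Homo and Het 0.307% and 0.0767%.

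Where a peak stands in its own list is described below by its fold and its percentile. The fold is the authors' ratio of tags at the summit to the local background, after 1 is added to both. At Mdm2 in Homo 3, for example, 37 tags over a background of 3.14 gave a fold of 9.18. The percentile ranks the −log10 p within the list, with 100 the strongest. Neither can be compared between libraries of different depth. Across the 84 peaks the fold ran from 4.01 to 9.22 with a median of 5.72, and the percentile from 0.860 to 95.8 with a median of 46.3. The peaks thus lay at strong, middle and weak places of the lists. Only 5 of the 84 were above percentile 90. The summit pileup was between 10 and 37 tags. The peaks had a median width of 329.5 bp.

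**Figure D3:**
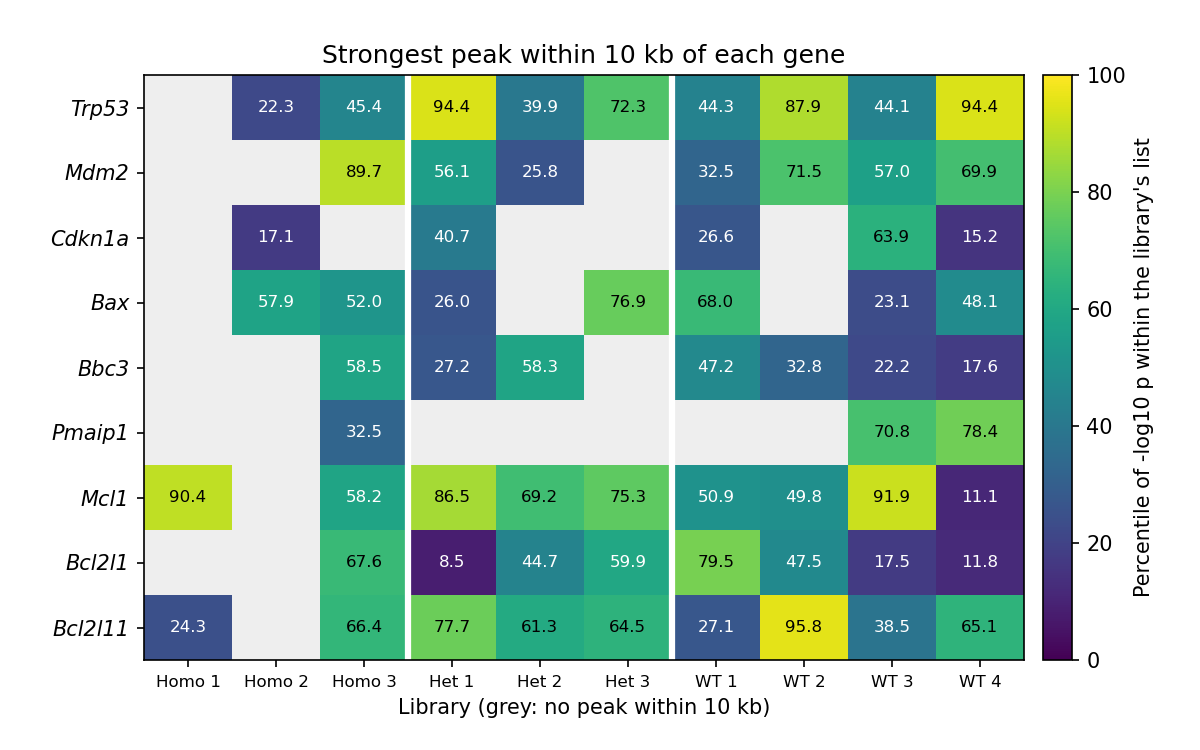
Within-list percentile of −log10 p for the strongest peak within 10 kb of each gene (rows) in each library (columns); grey means that no peak was listed. Trp53, Mcl1 and Bcl2l11 have a value in 9 of 10 libraries, and Pmaip1 in 3.

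Most peaks lay at starts of the genes. Of 81 peaks at the 8 genes with an annotated start in the promoter table, 59 had a summit within 500 bp of one. The other 22 were peaks upstream of Trp53 (9), an inner peak of Mdm2 (6) and peaks below Bax (6 and 1). The same share over all listed peaks was not counted, so this placement is not shown to be particular to these genes. Counting only peaks within 500 bp of an own start, the mean number of the 8 genes with one was 3.67 ± 2.89 in Homo, 4.67 ± 1.53 in Het and 6.75 ± 0.957 in WT (SD, n = 3, 3 and 4). The mean share of all protein-coding genes with such a peak was 21.0% in Homo, 19.2% in Het and 34.5% in WT, so WT was highest there too. All 8 genes had one in at least 1 library, against 44.6% of protein-coding genes, and 6 of the 8 in at least 5, against 30.9%. No start had one in all 10 libraries, against 1.57% of all starts in the table. Inside the gene, all 9 had a peak in at least 1 library (47.0% of all genes), and 6 of the 9 had one within 1 kb of a gene end (42.6%). The farthest peak inside the 10 kb windows lay 1698 bp from its gene, at Bax (Het 1, fold 4.69). Just outside it, the nearest peaks were 11195 bp from Bbc3 (WT 4, fold 5) and 11730 bp from Cdkn1a (Het 3, fold 5.33).

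**Figure D4:**
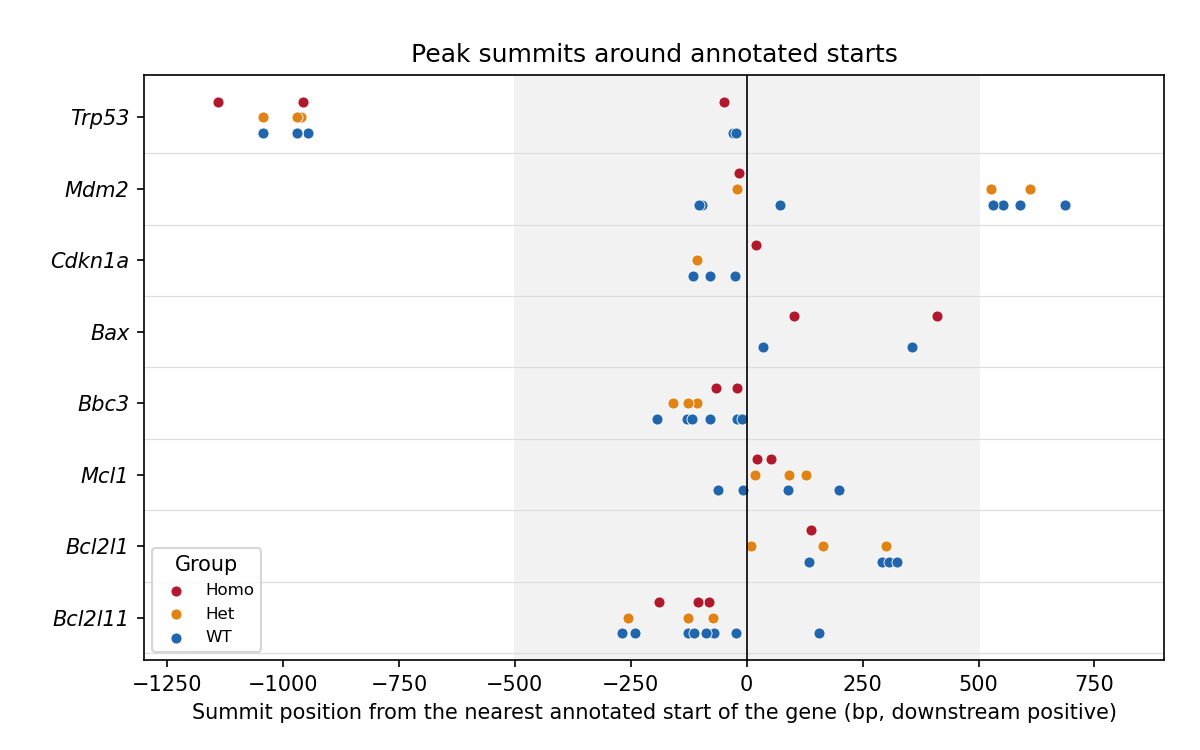
Distance in bp of each peak summit from the nearest annotated start of its gene (horizontal axis, downstream positive) for 8 genes (rows), coloured by group; grey shading marks 500 bp on either side. The Trp53 summits upstream of the shading and the Mdm2 summits beyond it lie apart from the starts; 7 peaks below Bax lie off the axis, and Pmaip1 has no start in the promoter table.

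Trp53 (chr11:69580348-69591873, plus strand) had its most frequent peak outside the gene. It lay at chr11:69579139-69579573, inside Wrap53, which encodes a telomerase RNP protein and is read from the opposite strand. Its summits were at −1141 to −947 bp from the Trp53 start, where minus means upstream, and at −163 to 31 bp from the other start of Wrap53. It was listed in 2 of 3 Homo, 3 of 3 Het and 4 of 4 WT libraries. The fold was 5.39 and 5.95 in Homo 2 and 3, 9.22, 6.09 and 6.67 in Het 1 to 3, and 5.47, 6.22, 5.56 and 8.81 in WT 1 to 4. Homo 1, whose list was longer than that of Homo 2, was the one library without it. In its list the peak reached percentile 94.4 in Het 1 and again in WT 4, and it was at 22.3 in Homo 2.

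The peak at the start that Trp53 shares with Wrap53, where the 2 genes diverge from starts 109 bp apart, was listed in fewer libraries. This region, chr11:69580179-69580511, spans the stretch printed above. It was present in 1 of 3 Homo libraries (Homo 3, fold 5.22), in no Het library and in 2 of 4 WT libraries (WT 1, fold 5.31, and WT 2, fold 7.84). So a count of peaks inside Trp53 alone gives 1, 0 and 2 libraries for Homo, Het and WT, where the 10 kb window gives 2, 3 and 4. No exact test of the start region between groups passed (adjusted p between 0.853 and 1).

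Mdm2 (chr10:117688875-117710758, minus strand) had peaks at 2 places near its annotated start. One lay at the start itself, with summits at −103 to 72 bp, and was listed in 1 Homo library (Homo 3), 1 Het library (Het 1) and 3 WT libraries (WT 1, 3 and 4). The other lay inside the gene, at 526 to 687 bp from the start, and was listed in no Homo library, 2 of 3 Het libraries and 4 of 4 WT libraries. As background, Mdm2 is known to have a promoter inside the gene that responds to p53, besides the one at its start. The single Homo peak, in Homo 3, was 640 bp wide with its summit at −16 bp, and joined both places into one region.
At the inner place the fold was 5.95 and 5.47 in Het 1 and 2, and 5.29, 7.23, 5.95 and 6.48 in WT 1 to 4. At the start it was 9.18 in Homo 3, 6.64 in Het 1, and 5.24, 5.62 and 5 in WT 1, 3 and 4. The Homo 3 peak had the highest summit pileup of the 84, at 37 tags, and percentile 89.7. For the region as a whole, presence in 1 of 3 Homo and 4 of 4 WT libraries gave an exact p of 0.143 (adjusted p = 0.743 over all regions). Where peaks had to share 50% of the shorter one to be joined, the inner place became a region of its own. It was present in 0 of 3 Homo and 4 of 4 WT libraries (exact p = 0.0286, adjusted p = 0.766). This rests on the overlap rule, since the Homo 3 peak begins at position 117710285. The inner peaks of Het 1 and WT 4 end beyond that, at 117710474 and 117710481. With joining by 1 bp, 0.289% of all regions were in every WT and no Homo library. That share was not counted under the 50% rule.

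Cdkn1a (chr17:29090979-29100722, plus strand) had one region, at its downstream start (chr17:29093516-29093944). It was listed in 1 of 3 Homo, 1 of 3 Het and 3 of 4 WT libraries. The fold was 4.64 in Homo 2, 5.90 in Het 1, and 5.24, 5.36 and 4.31 in WT 1, 3 and 4. Homo 2 has the shortest list and the lowest depth of all, and yet it holds a peak that Homo 3 lacks. No other protein-coding gene had the same presence over the 10 libraries as Cdkn1a, while Mdm2 and Bbc3 shared one pattern and had it in common with 885 genes each, the other of the pair included. The exact test gave an adjusted p between 0.748 and 1 for the 3 comparisons.

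Bax (chr7:45461695-45466903, minus strand) had 3 regions, of which the one most often listed belongs by position to a neighbour. It lay at chr7:45459771-45460141, with summits at −135 to 6 bp from the start of Ftl1, which encodes the ferritin light chain. It was listed in 1 Homo library (Homo 3), 2 Het libraries (Het 1 and 3) and 3 WT libraries (WT 1, 3 and 4), with folds between 4.01 and 5. At the start of Bax itself, chr7:45466367-45467205, a peak was listed in 2 of 3 Homo libraries, no Het library and 2 of 4 WT libraries. There the fold was 6.09 and 6.98 in Homo 2 and 3, and 5.77 and 4.17 in WT 1 and 4. WT 1 alone had a peak between the 2 genes (fold 5.84). Presence over the 10 libraries was the same at Bax as at Ftl1 and Dennd11, and at no other protein-coding gene. Ftl1 starts 1809 bp from Bax, and all 3 regions lie within 10 kb of it too, so the same peaks were counted for both. At its own start the difference between Homo and WT in the share of libraries with a peak was 0.167, opposite in sign to that within 10 kb. None of its regions passed the exact test (lowest adjusted p = 0.839 for Homo against WT).

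Bbc3 (chr7:16308398-16318334, plus strand) had regions at 2 of its clustered starts. The upstream one (chr7:16309282-16309691) was listed in 1 of 3 Homo, 2 of 3 Het and 4 of 4 WT libraries. Its fold was 4.56 in Homo 3, 4.04 and 5.79 in Het 1 and 2, and 4.40, 4.47, 4.5 and 4.28 in WT 1 to 4. These are low places in their lists, with a median percentile of 17.7, and Het 1 had the lowest percentile of the 84, at 0.860. The downstream region was listed in Homo 3 (fold 5.72), Het 1 (5.28), WT 1 (5.31) and WT 2 (4.88). Counting only peaks within 1 kb of a gene end, which leaves out both Homo 3 peaks, Bbc3 had one in 0 of 3 Homo and 4 of 4 WT libraries (exact p = 0.0286, adjusted p = 0.582). This rests on the edge of that window, since the upstream peak of Homo 3 begins at position 16309400 and that of WT 2, which is kept, at 16309394. With this window 29 genes had a peak in every library of one group and none of the other, 1 in Homo and 28 in WT. The GC content of the 3 Bbc3 promoters was between 72.4% and 81.6%.

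Pmaip1 (chr18:66458604-66465558) had the fewest peaks. One region at its lower end, chr18:66458358-66458918, was listed in 1 of 3 Homo, 0 of 3 Het and 2 of 4 WT libraries. The fold was 6.77 in Homo 3, 7.32 in WT 3 and 7.96 in WT 4, and the summits were 2 to 101 bp outside the gene. Its presence over the libraries was shared with 27 other genes. Its folds were above those of Bbc3 in each of these 3 lists, although Bbc3 was listed more often. By percentile Pmaip1 was above Bbc3 in WT 3 and WT 4. In Homo 3 it was at 32.5, below the downstream Bbc3 peak at 58.5.

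Mcl1 (chr3:95656944-95663179, plus strand) had a single region at its annotated start, chr3:95658439-95659280, in 2 of 3 Homo, 3 of 3 Het and 4 of 4 WT libraries. The fold was 7.51 and 7.18 in Homo 1 and 3, 8.62, 6.85 and 6.38 in Het 1 to 3, and 6.22, 6.33, 8.17 and 4.64 in WT 1 to 4. The percentile was 90.4 and 58.2 in these Homo libraries, 86.5, 69.2 and 75.3 in the Het libraries, and 50.9, 49.8, 91.9 and 11.1 in the WT libraries. The 4 WT libraries alone differed widely in this percentile. All 9 summits lay at −63 to 198 bp from the start, and Homo 2 was the library without a peak. Mcl1 and Bcl2l11 supplied the only peaks of Homo 1.

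Bcl2l1 (chr2:152758732-152833803, minus strand) had a single region, at the first of its 3 annotated starts (chr2:152831100-152831833). It was listed in 1 of 3 Homo, 3 of 3 Het and 4 of 4 WT libraries. The fold was 7.58 in Homo 3, 5.26, 6.05 and 6.42 in Het 1 to 3, and 7.08, 6.21, 5.14 and 5.03 in WT 1 to 4. With Homo 1 and Homo 2 the only libraries without it, it had the same presence as 358 other genes. The other 2 starts had a peak within 500 bp in 1 library (WT 2) and in none.

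Bcl2l11 (chr2:128126038-128162547, plus strand) had a region at each of its 2 starts, which lie 1537 bp apart. The first, chr2:128125638-128126126, also overlaps the end of Acoxl, which runs 214 bp past that start. It was listed in 1 of 3 Homo, 1 of 3 Het and 4 of 4 WT libraries, while the second, chr2:128127242-128127904, was listed in 2 of 3 Homo, 2 of 3 Het and 4 of 4 WT libraries. At the first start the fold was 6.10 in Homo 3, 6.88 in Het 1, and 4.33, 8.33, 4.95 and 5.56 in WT 1 to 4. At the second it was 4.70 and 6.79 in Homo 1 and 3, 6.16 and 5.77 in Het 2 and 3, and 5.26, 5.09, 4.07 and 5.73 in WT 1 to 4. Both starts were listed together in Homo 3 and in all WT libraries, and in no Het library. Among the 14 regions the first start gave the lowest p for Het against WT (exact p = 0.143, adjusted p = 0.656).

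**Figure D5:**
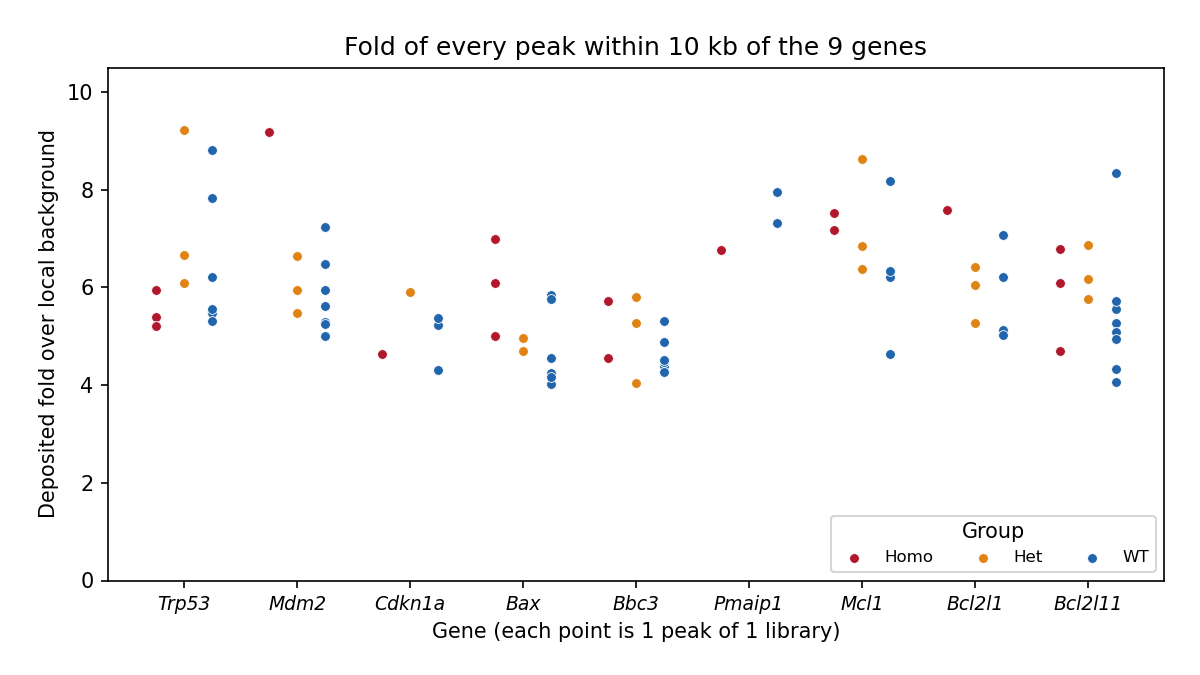
Deposited fold over local background (vertical axis) of every peak within 10 kb of each gene (horizontal axis), 1 point per peak, coloured by group. Folds run from 4.01 to 9.22. Folds from lists of different depth are shown as a description and cannot be ranked against each other.

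Other genes of the pathway were read in the same way. Of 19 regulators of p53, 17 had a peak within 10 kb in at least 1 library, and on average 56.1% had one per Homo library, 61.4% per Het library and 81.6% per WT library. The same means over all protein-coding genes were 27.5%, 25.9% and 44.1%. Wrap53 was one of the 19, and the peaks given above for Trp53 were counted for it too. Mdm4, a relative of Mdm2 that inhibits p53, had a peak in all 10 libraries. Cdkn2a, whose product ARF links MYC to p53 by inhibiting MDM2, had none in any. Trp53bp1, a DNA damage response protein that binds p53, and Kat5, an acetyltransferase of p53, had a peak in every WT and no Het library, as did 4.74% of the 11636 genes tested between Het and WT.

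Of 32 further p53 target genes, 30 had a peak in at least 1 library and 6 had one in all 10, with means of 56.2% in Homo, 57.3% in Het and 80.5% in WT libraries. Among these 6, the strongest in their lists were Ccng1, which encodes cyclin G1 (median percentile 81.5), the antiproliferative gene Btg2 (76.2), Gtse1 (74.8) and Rps27l (67.3). Eda2r and Tnfrsf10b, which encode receptors of the TNF receptor family, had none in any library. Of 13 other BCL2 family genes only 6 had a peak, with means of 20.5% in Homo, 15.4% in Het and 32.7% in WT. Bcl2l2, which encodes the survival protein BCL-W, had one in all 10 (median percentile 92.6), and Bcl2, Bcl2a1a, Bcl2l10, Bok, Bik, Hrk and Bcl2l14 had none. Of 21 caspases and their regulators 20 had a peak, with means of 44.4% in Homo, 49.2% in Het and 77.4% in WT. Cycs, which encodes cytochrome c (median percentile 93.7), and Apaf1, which assembles with it into the apoptosome (65.4), had one in all 10. The mean share of each of the 4 lists was higher in WT than in Homo or Het, as was that of all genes, but the Homo libraries ranged widely. From 6 to 17 regulators had a peak in a Homo library, 9 to 14 in a Het library and 14 to 17 in a WT library. For the p53 targets the ranges were 8 to 28 in Homo, 14 to 22 in Het and 25 to 27 in WT. For the BCL2 family they were 1 to 6, 1 to 3 and 3 to 5 in Homo, Het and WT, and for the caspases and their regulators 5 to 17, 6 to 13 and 13 to 18. The Homo maxima thus reached or passed the WT maxima in every list except the caspases, and no list was tested. The lists share genes, since Bid was in the target and BCL2 lists and Apaf1 in the target and caspase lists.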

How the data were processed

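ATAC-seq peak lists of 10 libraries were analysed. Bowtie2, MACS2, deepTools and mm10 are named, without versions, per the submitters' processing notes. Read totals, peak calling settings, any transposase shift and pooling were not given in the sources used here. The authors deposited, for each peak of each library, a fold (a ratio), −log10 p and −log10 q values, a score and a summit. Groups came from the titles.

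A gene was counted where a deposited peak lay within 10 kb of it. Peaks of all lists that overlapped by 1 bp made a region. Presence was tested with Fisher's exact test, two-sided, over all genes or regions, with Benjamini-Hochberg adjustment. A whole-number pileup and background were recovered from fold and −log10 p (tolerance 0.001) in at least 99.9% of each list. Gene names, starts and promoters came from RefSeq GRCm38.p6. Python 3.11.15, pandas 2.3.3 and scipy 1.17.1 were used, and the steps were tested on simulated data. All 9 genes were named, and from each pathway list up to 4 genes with a peak in every library and those with a peak in all of one group and none of another. The genes and lists were chosen with earlier results of these data known. Depth and length differed between lists, so lists of equal depth and equal length were also made.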

Additional observations from a re-analysis of the deposited data

How the results depend on the processing

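The number of the 9 genes with a peak differed from WT by −3.67 in Homo and −1.67 in Het, and Homo minus Het was −2. With lists of equal length these differences from WT were 0.667 and 2, and with lists of equal depth Het minus WT was 0.833. Leaving out 1 library at a time, Homo minus WT ranged from −5.5 to −2.5, Het minus WT from −2.5 to −1 and Homo minus Het from −3.83 to −0.833. The count of genes with a peak in every library of one group and none of the other was 28 for Homo and WT, 553 for Het and WT and 52 for Homo and Het. For Homo and WT it was 51 with −log10 p of at least 10 and 70 at equal depth, and it ranged from 39 to 2679 without 1 library, with 2679 without Homo 3. For Het and WT it was 102 at equal length and 143 at equal depth, and ranged from 602 to 1549. For Homo and Het it was 33 within 1 kb of a gene end, 32 with −log10 p of at least 10, 88 at equal length and 31 at own starts (an alternative chosen after seeing the data), and ranged from 88 to 449. Leaving out a library can only keep or raise these counts of genes, because fewer libraries then have to meet the rule. The cause of the other changes was not tested.

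For single genes the value is the difference in the share of libraries with a peak, and under no setting run here did the exact test give one of the 9 genes an adjusted p below 0.288. Homo minus WT changed sign to 0.167 at Bax (inside the gene, within 1 kb of its ends, or at own starts) and, without 1 library at a time, ran there from −0.333 to 0.25, with 0.25 without Homo 1. At equal length it was 0.333 at Mdm2, Cdkn1a and Bax and 0.0833 at Mcl1, and at equal depth 0.0833 at Cdkn1a. Het minus WT changed sign at Bax to 0.333 at equal length, ran there from −0.333 to 0.25 without 1 library at a time, with 0.25 without Het 2, and at equal depth to 0.0833 at Cdkn1a and 0.167 at Bbc3. Homo minus Het changed sign to 0.333 at Trp53 (inside the gene or at own starts) and at Mdm2 at equal length. Differences of 0 have no sign to change, but some moved further. Het minus WT went from 0 to 0.75 at Mcl1 at equal length and to 0.5 at Bcl2l1 at equal depth. It went from 0 to −0.5 at Trp53 inside the gene and to −0.667 at Bcl2l11 within 1 kb of a gene end. Homo minus Het went from 0 to 0.667 at Bax inside the gene. With an overlap of 50% of the shorter peak, the region at the start of Bax split, and its other part gave −0.167 for Homo minus WT.

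The replicate numbers do not pair the libraries: correlations of same-numbered deviations ran from −0.113 to 0.0143. A replicate block takes same-numbered libraries only, so it left out WT 4 and changed nothing else in these values. With it the difference in genes was −3.33 for Homo minus WT, −1.33 for Het minus WT and −2 for Homo minus Het. The counts of genes were 39, 656 and 52. These equal the values without WT 4, and for Homo and Het those of all libraries. Summit pileups of 10 to 37 tags and 3 or 4 libraries per group limit what presence can show.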
